A study of Saccharomyces cerevisiae with 8 samples.

Results

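The change in gene expression of the laboratory yeast BY4741 between the start and 6 h of a fermentation assay was read from 1 array of the 8 in the study. On this array, RNA of BY4741 taken at 6 h (T6h) was labelled with the red dye Cy5, and RNA of the same strain taken at 0 h (T0h) with the green dye Cy3. The measure was the log2 ratio of red over green for each of the 6256 gene probes, each printed in 2 spots, so that 12512 spots were read and no spot of control sequences entered. A value of 1 means that the signal was 2 times as bright at 6 h as at 0 h, and a value of -1 the reverse. The other 7 arrays set RNA of industrial yeasts against the same BY4741 T0h reference. They hold 1 sample each of PE-2, JP1 and CAT-1 at T0h, 2 of JP1 at T6h and 2 of CAT-1 at T6h. Before the assays all cells had been grown in repeated batches of 24 h in YPD, a rich medium of glucose, yeast extract and peptone, at 33 °C and 130 rpm. The design text speaks of biological replicates, but BY4741 at T6h is 1 sample and both times of BY4741 meet on 1 array, so no test was possible and every value below describes that array. The 2 spots of a probe show how well a hybridisation was read and say nothing about how another culture would behave. The labels do not give the medium or the vessel of the assay itself.

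BY4741 is a haploid strain of mating type a from which HIS3, LEU2, MET17 and URA3, genes needed to make histidine, leucine, methionine and uracil, have been deleted. These deletions are shared by both channels. Yeast with plenty of glucose ferments it to ethanol and represses the genes for respiration and for the use of other carbon sources. When glucose runs out, cells turn to respiration of ethanol and acetate, build up glycogen and trehalose, switch on stress genes and slow the making of ribosomes. Genes for amino acid synthesis answer to the supply of amino acids, largely through the activator Gcn4, and those for sulfur amino acids through Met4 with its helpers Met28, Met31, Met32 and Cbf1.

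The array was read evenly. Of its gene spots, 89.6% were well above background in green and 92.6% in red, and no spot was saturated or had to be left out. Well above background is a mark that the scanner software sets for each spot and channel. The Spearman correlation between the first and second spots over all probes was 0.990, against 0.973 to 0.988 on the other 5 arrays of the first slide. On the second slide, with the replicates numbered 4 and 5, it was 0.529 for JP1 and 0.611 for CAT-1, and only 17.5% and 9.63% of green spots were well above background there. The spread of a single spot within the BY4741 array was 0.0693 (SD, log2 scale). The 2 log2 ratios of a probe differed by 0.0590 at the median and by 0.273 at the 99th percentile.

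**Figure D1:**
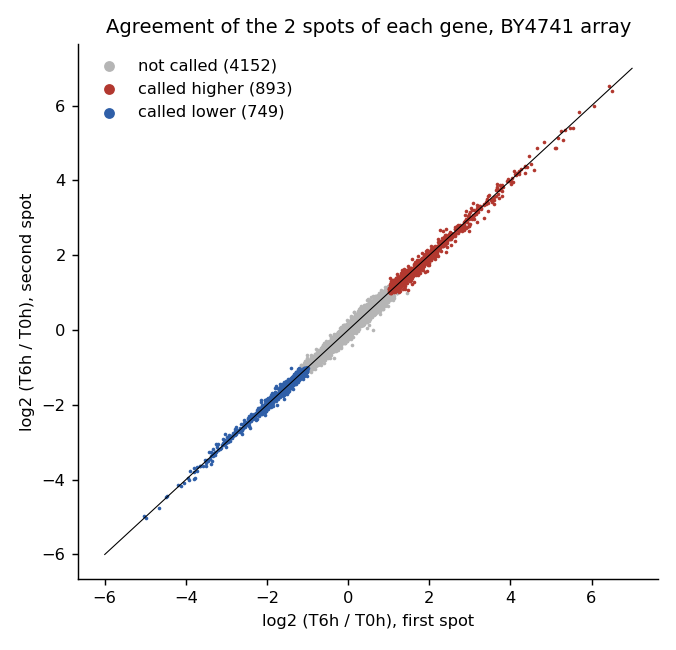
Each point is a gene measured on the BY4741 T6h array, with the log2 ratio of T6h over T0h of its first spot on the horizontal axis and of its second spot on the vertical axis. The 893 genes called higher (red) and the 749 called lower (blue) lie along the line of equality, and the 2 spots of a called gene differ by at most 0.416.

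The label of the red sample was checked with the 4 deleted genes. Their red signals on the BY4741 array were 27 for HIS3, 28.5 for LEU2, 26.5 for MET17 and 25.5 for URA3, in scanner units, and none of these spots was well above background in either channel. On the other 7 arrays the red signal was well above background for all 4 genes, from 90.25 to 807.75 for HIS3, 219.75 to 22157 for LEU2, 76.75 to 12276 for MET17 and 71.25 to 3843 for URA3. The red channel of the BY4741 array thus lacked signal for the 4 genes that BY4741 lacks, and no other array did. By red signal the mating genes went both ways: the haploid gene STE18 read 1112.25 here and 38 to 97 on the other 7 arrays. STE2, of mating type a, read 145.5 here and 352.5 on the CAT-1 T0h array, whose median red signal was 585 against 234 here. Both were picked by value. The log2 ratios of the mating genes do not check the strain, since both channels hold BY4741. Of 7 genes specific to mating type a, MFA1 and MFA2, which encode its pheromone, were higher, at 1.06 and 1.95, and STE6, BAR1, AGA2, STE2 and ASG7 were not called, between -0.28 and 0.66. Of 4 genes of the opposite mating type, the pheromone gene MF(ALPHA)1 was at least 2.81-fold higher, with green not well above background, and SAG1 was lower at -1.09. STE3, at 0.71, and MF(ALPHA)2, at 0.14, were not called, but SAG1 and STE3 were well above background in both channels, so probes of that type did not read 0 in this strain. Of 16 genes that haploid cells express, STE18 was higher at 1.09 and RME1 lower at -1.12. The others, STE4, STE5, GPA1, FUS1, FUS2, FUS3, FAR1, HO, NEJ1, AXL1, RDH54, STE12, KAR4 and AGA1, lay between -0.26 and 0.98.

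**Figure D2:**
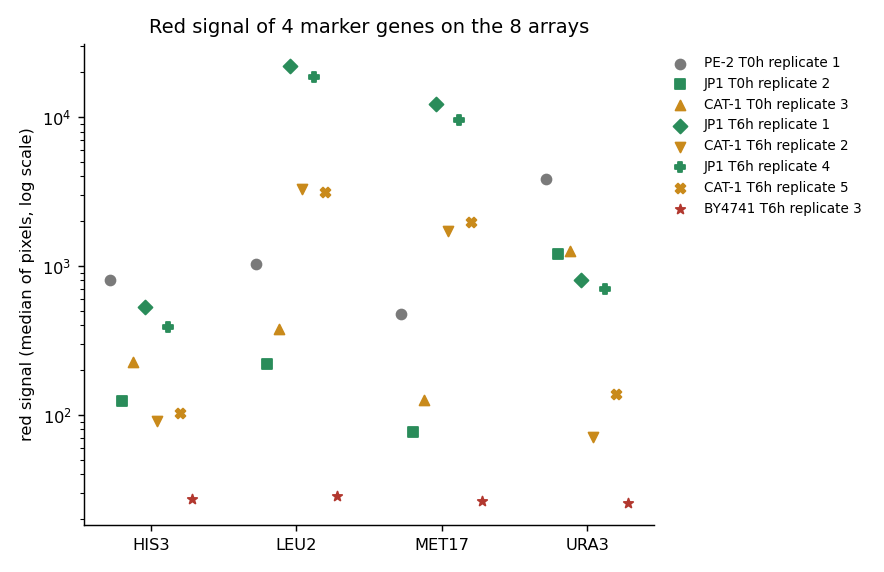
Red signal of the probes for HIS3, LEU2, MET17 and URA3 on each of the 8 arrays, as the median brightness of the spot's pixels in scanner units on a log axis, averaged over the 2 spots. The stars of the BY4741 T6h array lie between 25.5 and 28.5, below every point of the other 7 arrays.

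The deposited table of processed values does not follow these labels throughout. Its column for the BY4741 array followed the log2 ratios of that array with a Pearson correlation of 0.979 across genes, but with a slope of 0.589, so its scale is unknown. Its column for JP1 T6h replicate 1 matched the mean of the JP1 T6h replicate 1 and BY4741 T6h arrays, with a correlation of 1.00. Its columns for JP1 T0h and CAT-1 T0h matched scanner files of the T6h stage, those of JP1 replicate 1 and CAT-1 replicate 2, each with a correlation and a slope of 1.00. Its column for CAT-1 T6h replicate 2 matched the mean of the PE-2 T0h and JP1 T0h arrays at 0.999, against 0.181 for its own array. Its column for PE-2 T0h matched no array, with 0.358 as the highest correlation with a single one. Whether files or columns carry the wrong name is not given, so all values here come from the scanner files under their own labels. The 893 genes called higher below were all above 0 in the BY4741 column, and the 749 called lower were all below 0.

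A gene was called higher when both of its spots reached a log2 ratio of 1 and the red spots were well above background, and called lower when both reached -1 with green spots well above background. A gene counted as measured when both spots of at least 1 channel were well above background, which held for 5794 of the 6256. Of these, 893 were called higher (15.4%) and 749 lower (12.9%), 28.3% together. At a log2 ratio of 2 or more, 4 times as bright, 291 genes were higher (5.02%) and 194 lower (3.35%). The other 4152 genes, 71.7% of those measured, were not called at the lower size. Ratios ran from -5.00 to 6.48, with quartiles at -0.57 and 0.62. Normalisation set the middle of the ratios near 0, with 2895 genes above it and 2899 below, so a change in the total amount of messenger RNA would not show. The split rests on that step: with the ratios centred on their median in place of loess, 780 genes were higher and 989 lower, and with no normalisation 388 were higher and 1991 lower, with the median of all measured genes at -0.66. Fewer cells with a transcript and less of it per cell cannot be told apart in RNA of a whole culture. Between log2 ratios of 0.9 and 1.1, 57 genes were called higher and 166 were not, and at the same sizes below 0, 72 were called lower and 149 were not.

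The genes of sulfate assimilation and methionine synthesis held many of the largest increases on the array. Sulfate is taken up by the permeases Sul1 and Sul2, activated, and reduced to sulfide, which is then built into homocysteine, methionine and cysteine. Of the 10 sulfate assimilation genes, 9 were called higher and none lower, with a median log2 ratio of 4.31. MET14, which encodes the kinase that phosphorylates activated sulfate, read 6.43 and 6.53 on its 2 spots. Its normalised red signal was 29804 and its normalised green signal 334, a difference of 89.2-fold. That was the largest of all genes called, though with a smaller offset TPO2, an exporter of polyamines, was ahead of it at 6.72 against 6.58. MET16, the reductase of the next step, read 6.03 as the mean of its spots, with signals of 7409 in red and 113 in green, or 65.4-fold. MET3, which makes the first activated form of sulfate, and MET5, a subunit of the sulfite reductase, were 31.8- and 31.7-fold higher. The uptake genes parted, since SUL2 had a log2 ratio of 4.39 and SUL1 one of 0.32, which was not called.

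Past sulfide, 16 of 24 measured genes of cysteine, methionine and S-adenosylmethionine metabolism were higher and 2 were lower. MET17, the enzyme that joins sulfide to a carbon chain, is deleted in BY4741 and was measured in neither channel. STR3, which turns cystathionine into homocysteine, read 5.69 and 5.84, and MET6, the methionine synthase, read 5.47 and 5.40. Their normalised signals were 6547 in red against 120.4 in green for STR3, and 6305 against 146 for MET6. Among the regulators, MET28 was 39.1-fold and MET32 30.5-fold higher, while MET4 itself had a log2 ratio of 0.35 and was not called. CBF1, the DNA-binding partner of Met4, was lower at -1.64, and so was MET12, a minor reductase of folate, at -1.35. The permeases for methionine were higher too, MUP1 at 3.82 and MUP3 at 3.63, as was YCT1, a cysteine transporter outside the lists, at 4.19. HSU1, an enzyme through which cells without MET17 can use sulfide, had a log2 ratio of 3.13, with spots of 3.05 and 3.21.

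The branched-chain amino acid genes behaved alike, apart from 1 aminotransferase. Of 12 measured genes 9 were higher and 1 was lower, with a median of 2.98. OAC1, a mitochondrial carrier that exports an intermediate of leucine synthesis, read 5.55 and 5.39, with 6424 in red and 145 in green. LEU1, the isomerase of leucine synthesis, was 20.7-fold higher, and ILV3, the dehydratase shared by the pathways, 17.7-fold. BAT1, the mitochondrial aminotransferase, was 36.5-fold higher, with signals of 3816 and 105 in red and green. BAT2, its cytosolic counterpart, was 16.7-fold lower, with 586 and 9787. LEU4, at 0.96, and ILV6, at 0.26, were not called.

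Histidine, aromatic, arginine and lysine synthesis were higher in most of their genes. For histidine and the aromatic amino acids, 15 of 18 measured genes were higher and none was lower, with a median of 1.75. ARO4 and ARO3, which open the aromatic pathway, had ratios of 3.48 and 2.67, and HIS1 and HIS4, of histidine synthesis, 3.43 and 3.41. For arginine, 11 of 15 were higher and 2 lower: ARG4 and ARG1, which carry out the last steps of its synthesis, were 17.9- and 17.7-fold higher, while CAR2, which acts in its breakdown, was 2.83-fold lower and the regulator ARG80 2.16-fold. Of 9 lysine genes, 5 were higher, among them the homocitrate synthases LYS21 and LYS20 at 2.74 and 1.78, and none was lower. The list of threonine, serine and glycine genes went both ways, with 3 of 16 higher, 6 lower and a median of 0.14. HOM3, the first enzyme towards threonine and methionine, read 5.18 and 5.13, or 35.6-fold higher, and HOM2, of the next step, and SER33, of serine synthesis, were higher at 4.00 and 4.01. THR1, at the branch that leads to threonine alone, had a ratio of 0.01 and was not called.

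Some genes that break amino acids down were among the lowest on the array; they were picked by value and form no list. CHA1, the enzyme that degrades serine and threonine, had the lowest ratio, though with a smaller offset ARO10 and PHO89 were below it, at -5.34 and -5.18 against -5.16. For CHA1 it came with spots of -5.03 and -4.97 and signals of 464 in red against 14834 in green, 31.9-fold lower. The glycine cleavage genes GCV1, GCV2 and GCV3 were 5.75-, 2.54- and 3.99-fold lower. ARO9 and ARO10, of the route from aromatic amino acids to fusel alcohols, were 15.6- and 26.3-fold lower. GDH2, which releases ammonium from glutamate, was lower at -2.60. The list of genes for poor nitrogen sources, such as allantoin, proline and GABA, had 4 of 20 genes higher (20%) and 2 lower (10%). These shares were near the 15.4% and 12.9% of all measured genes. Among the higher were UGA3 at 1.96 and UGA4 at 1.77. The messenger of GCN4, the activator of amino acid synthesis, had a log2 ratio of 0.25 and was not called. Gcn4 is controlled chiefly in translation, which an array does not see. PCL5, a cyclin that marks Gcn4 for destruction, was 8.07-fold higher. Among 20 amino acid and peptide permeases, 6 were higher and 6 lower: BAP3 and the general permease GAP1 read 2.87 and 1.94, while AGP2, PUT4, PTR2 and DIP5 lay between -2.88 and -1.78.

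**Figure D3:**
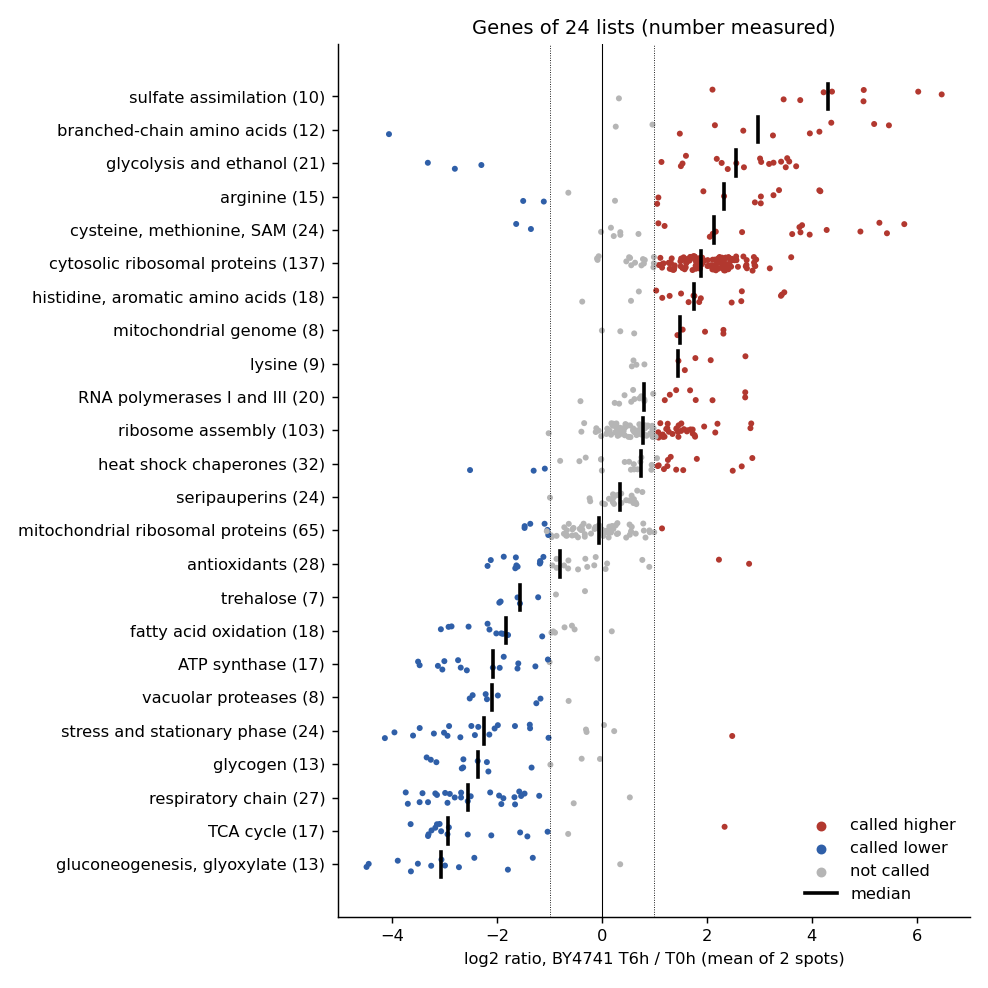
Each point is a measured gene of 1 of 24 gene lists, placed by its log2 ratio of BY4741 T6h over T0h as the mean of 2 spots, with red for genes called higher, blue for genes called lower and grey for the others. Black bars mark list medians, which run from -3.06 for gluconeogenesis and glyoxylate genes to 4.31 for sulfate assimilation, and dotted lines mark ratios of -1 and 1.

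Glycolysis and ethanol formation were higher in nearly all of their genes. All 21 genes of the list were called, 18 higher and 3 lower, with a median of 2.56. TPI1, the triosephosphate isomerase, read 3.66 and 3.75, with a normalised signal of 47313 at 6 h and 3632 at 0 h. PDC1, the main pyruvate decarboxylase, read 3.58 and 3.56, with 57798 and 4863. ENO2 and its near copy ENO1, the enolases, were 11.4- and 10.7-fold higher, and the probes of such close copies may share signal. ADH1, which makes ethanol from acetaldehyde, was 4.87-fold higher. The smallest increases were those of PFK1 and PFK2, subunits of phosphofructokinase, at 1.13 and 1.54, and of TDH3 at 1.51. The 3 lower genes were HXK1, GLK1 and PYK2, at -3.32, -2.81 and -2.30: a hexokinase, the glucokinase and a pyruvate kinase that cells use when glucose is scarce. PFK27, which makes an activator of phosphofructokinase and is in no list, was 13.3-fold higher.

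Hexose transporters differed among themselves. HXT3 and HXT1, transporters of low affinity, read 4.48 and 3.23. HXT4, of higher affinity, was higher too, at 2.33. For HXT3 the signal was 3037 at 6 h and 136 at 0 h, 22.3-fold higher, and for HXT1 it was 1214 and 129. HXT5, a transporter of cells that grow slowly or not at all, was 13.5-fold lower, with 446 against 5996. HXT6 and HXT7, near-identical transporters of high affinity, lay at -1.02 and -0.87 and were not called, since at least 1 spot of each fell short of -1. The glucose sensor SNF3 was lower at -1.16, and the sensor RGT2, at 0.55, was not called. In all, 3 of 15 measured genes of the list were higher (20%) and 2 lower (13.3%). These shares were near those of all measured genes, 15.4% and 12.9%.

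The regulators of glucose repression held genes of both directions. HXK2, the hexokinase that also takes part in repression, was 9.66-fold higher. MIG2, a repressor of genes for other sugars, was at least 5.21-fold higher, a bound because its green spots were not well above background. STD1, a partner of the glucose sensors, read 1.97, and MIG1, at -0.10, was not called. The activators of respiration and of ethanol use HAP4 and CAT8 were lower, at -1.54 and -2.32, and ADR1, at -0.67, was not called. Nor were MIG3, MTH1, SNF1 and SIP4, at 0.32, -0.44, -0.06 and 0.65. USV1 and GSM1, factors of respiratory growth, read -3.15 and -2.64, and the repressor of hexose transporter genes RGT1 read -1.43. Of the 14 sucrose and maltose genes, none was higher and 3 were lower (21.4%, against 12.9% of all measured genes). Among these were the invertase SUC2 at -2.60 and the maltose transporters MAL11 and MAL31 at -1.99 and -1.63.

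Respiration was lower almost throughout. Of 17 genes of the tricarboxylic acid cycle 15 were lower and 1 was higher, with a median of -2.95, against 12.9% lower among all measured genes. CIT1, the citrate synthase, was 9.51-fold lower. ACO1, the aconitase, read -3.66 and -3.64, with signals of 567 at 6 h and 7108 at 0 h. SDH3, of succinate dehydrogenase, and KGD1, of the oxoglutarate dehydrogenase, were 9.96- and 9.89-fold lower. IDH2, of isocitrate dehydrogenase, was not called, at -0.64, and IDH1 read -1.04.

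In the respiratory chain 25 of 27 nuclear genes were lower and none was higher, with a median of -2.56. QCR2, of the cytochrome bc1 complex, read -3.72 and -3.76, COX5A, of cytochrome oxidase, -3.73 and -3.67, the dehydrogenase NDI1 -3.40 and -3.44, and COX4, of cytochrome oxidase, -3.38 and -3.57. Signals of COX5A were 903 at 6 h and 11753 at 0 h, 13.0-fold lower. QCR8, at -0.54, and COX5B, the form of subunit 5 used without oxygen, at 0.53, were not called. Of 17 nuclear genes of the ATP synthase, 15 were lower and none was higher, with the catalytic subunit gene ATP2 at -3.51 and ATP3, ATP5 and ATP16 at -3.48, -3.13 and -3.04. ATP18, at -0.09, was not called, nor was ATP19, of which 1 spot fell just short of the size needed.

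The subunits encoded in the mitochondrial genome did not share this direction. Of 8 measured, 5 were higher and none was lower, with a median of 1.49. COB, cytochrome b, read 2.33 and 2.30, with a signal of 2342 at 6 h and 470.1 at 0 h. ATP6 of the ATP synthase read 2.34 and 2.30, and the cytochrome oxidase subunits COX2, COX1 and COX3 read 1.97, 1.54 and 1.44. ATP8, OLI1 and VAR1 were not called, with VAR1 closest to 0 and the others at 0.61 and 0.35. Nuclear subunits of the respiratory chain and the ATP synthase were thus mostly lower, and their mitochondrial subunits were higher or not called. Proteins of the mitochondrial ribosome were in between, with 1 of 65 higher, 6 lower and a median of -0.06.

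Genes for living on ethanol, acetate and fat were lower. In gluconeogenesis and the glyoxylate cycle 12 of 13 genes were lower and none was higher, with a median of -3.06, the lowest of the lists. PCK1, the first step of gluconeogenesis, read -4.47 and -4.43, with 1259.7 at 6 h against 27495 at 0 h, 21.8-fold lower. JEN1, the lactate carrier, read -4.50 and -4.48 and was 22.5-fold lower, and the acetate carrier ADY2 and the isocitrate lyase ICL1 were 14.9- and 12.5-fold lower. ADH2, the alcohol dehydrogenase that consumes ethanol, was the gene not called, at 0.35, and its probe may take signal from ADH1, a close copy. ALD6, ALD4 and ACS1, which turn acetaldehyde into acetate and acetate into acetyl-CoA, were lower at -4.16, -3.57 and -3.26. ACH1, which moves CoA between acetate and succinate, read -3.84. ALD5, another mitochondrial aldehyde dehydrogenase, and ADH5, a minor alcohol dehydrogenase, were higher at 5.34 and 3.95. Of 18 genes of fatty acid oxidation 11 were lower and none was higher: the carnitine genes YAT2 and CRC1 read -3.07 and -2.92, the thiolase POT1 -2.87 and the carnitine acetyltransferase CAT2 -2.54.

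Reserve carbohydrates and stress genes were lower as well. Of 13 glycogen genes 10 were lower and none was higher, with a median of -2.37. GLC3, the branching enzyme, and GSY1, a glycogen synthase, read -3.34 and -3.26, and GDB1, which takes glycogen apart, -3.16. Genes of synthesis and of breakdown were thus lower alike. Of 7 trehalose genes 5 were lower and none was higher, with the synthase genes TSL1, TPS1 and TPS2 at -1.96, -1.93 and -1.61 and the vacuolar trehalase ATH1 at -1.56. The cytosolic trehalases NTH1 and NTH2 were not called, at -0.88 and -0.32. PGM1 had a ratio of -0.04, against -2.67 for PGM2, the major phosphoglucomutase.

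Among 24 genes of stress and stationary phase, 19 were lower and 1 was higher, with a median of -2.25. OM45, a protein of the outer mitochondrial membrane, read -4.11 and -4.17, with 2063 at 6 h and 36344 at 0 h. SPG4 and SPG1, needed for survival in stationary phase, were 15.5- and 12.1-fold lower, and the membrane protector HSP12 was 9.22-fold lower. The gene called higher was MSN4, an activator of stress genes, at 2.48, while its partner MSN2 lay at 0.23. Of 28 antioxidant genes 11 were lower and 2 higher, with the catalases CTA1 and CTT1 at -2.18 and -1.61, and GSH1, the first step of glutathione synthesis, at 2.81. In the vacuole, 7 of 8 protease and inhibitor genes were lower, among them CPS1 at -2.52, PRC1 at -2.22 and PEP4 at -2.19.

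Chaperones did not share the direction of the other stress genes. Of 32 heat shock and chaperone genes 12 were higher and 3 lower, with a median of 0.74. CUR1 and HSP31 were higher at 2.87 and 2.67, and so was YDJ1, a partner of the Hsp70 proteins, at 2.49, with a signal of 8921 at 6 h and 1584 at 0 h. HSP26, a small heat shock protein of stationary phase, was lower at -2.52, as were SSA3 and HSP60 at -1.30 and -1.09. HSP104 and HSP82 were not called, at -0.43 and 0.75.

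The cytosolic ribosome was the largest list, and its called genes all lay in 1 direction. Of 137 ribosomal protein genes 122 were higher (89.1%, against 15.4% of all measured genes), none was lower, and the median was 1.89. RPS27B read 3.64 and 3.57, with 8983 at 6 h and 736 at 0 h, and RPL33B, RPL21B and RPL35B read 3.20, 2.94 and 2.92. The lowest were RPL15B, RPL7A and RPL3, at -0.09, -0.08 and -0.06. Many ribosomal proteins are encoded by 2 near-identical genes whose probes may share signal, so members of a pair are not separate readings. Of 103 ribosome assembly genes 32 were higher and none was lower, with a median of 0.77. MRT4, DBP2, RRP4 and UTP9 led them at 2.85, 2.83, 2.20 and 2.16. Of 20 subunits of RNA polymerases I and III, which make ribosomal and transfer RNA, 8 were higher and none was lower, led by RPO31 at 2.73, RPC19 at 2.73, RPA12 at 2.11 and RPA34 at 1.79. Translation factors were mixed, with 5 of 28 higher (17.9%), near the 15.4% of all measured genes, and 1 lower. Their median was 0.05, which was -0.18 under median centring. The elongation factor gene YEF3 was higher at 2.60 and CAM1 lower at -1.18.

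Some pairs of genes for the same enzyme or function parted. Of 24 pairs chosen after their values were seen, 14 had a member called higher and the other called lower. In 6 both members were called in the same direction. Because of that choice the counts give no rate for pairs in general. The gap was widest for BAT1 and BAT2. For the hexokinases it ran from 3.27 for HXK2 to -3.32 for HXK1, with signals of 6645 and 688 at 6 h and 0 h for HXK2, and 1096 and 10946 for HXK1. In the pentose phosphate pathway, which makes NADPH and ribose, the main isoforms TAL1, GND1 and SOL3 were higher at 2.05, 1.59 and 1.08. Their counterparts NQM1, GND2 and SOL4 were lower at -2.68, -1.37 and -2.14. The list median of -0.70 hides that 4 of its 12 genes were higher and 4 lower. Among pairs whose members are known to answer to oxygen, ANB1, the form of eIF5A used without oxygen, read 4.35 and 4.19, and its aerobic twin HYP2 read -2.26 and -2.28. The ADP/ATP carriers AAC3 and PET9 read 1.45 and -2.73. Other such pairs did not part: the cytochrome c genes CYC7 and CYC1 were both lower, at -1.54 and -1.48, and HMG1 and HMG2, of sterol synthesis, were not called, at -0.63 and -0.59. Of 12 hypoxic genes 3 were higher (25.0%, against 15.4% of all measured genes), namely ANB1, AAC3 and the sterol importer AUS1, at 1.65. The gene called lower was OLE1, the fatty acid desaturase, at 9.25-fold. The mannoproteins TIR1 and TIP1 were lower at -1.94 and -1.46, and none of 24 seripauperins was called (median 0.34). Probes of the seripauperins, a family of near-identical genes, may share signal.

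**Figure D4:**
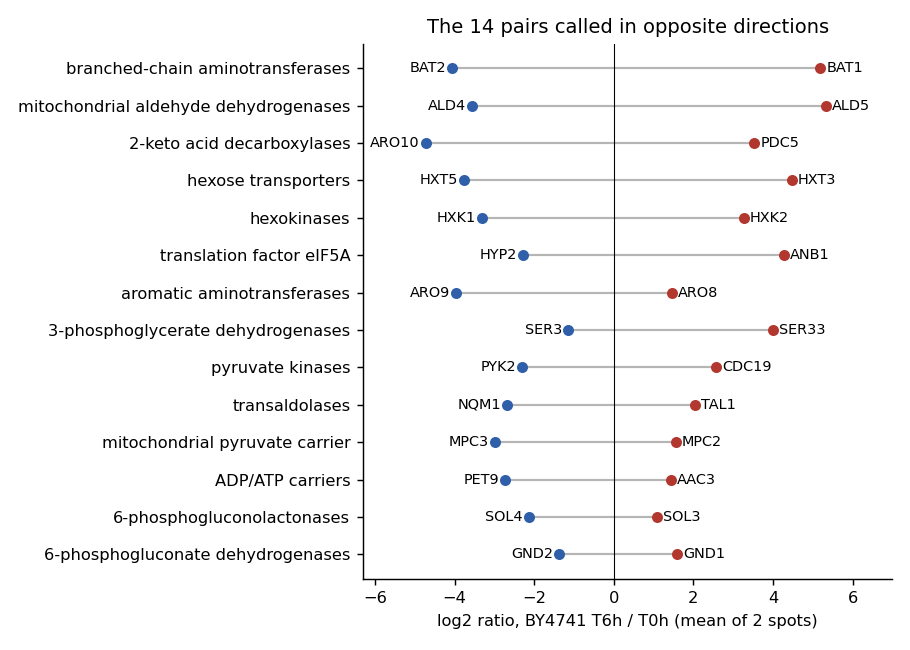
The 14 pairs of related genes whose members were called in opposite directions, each joined by a line, with the log2 ratio of BY4741 T6h over T0h on the horizontal axis. The pairs are ordered by the gap, from BAT1 and BAT2 at the top to GND1 and GND2 at the bottom.

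Of 10 measured glycerol genes 2 were higher (20%) and 5 lower (50%), against 15.4% and 12.9% of all measured genes. GPP1 and GPP2, the phosphatases that release glycerol, read 4.15 and 4.19 and 4.22 and 4.25, or 18.0- and 18.9-fold higher. GUT2 and GUT1, which consume glycerol, were 10.3- and 4.28-fold lower. GPD1, which makes glycerol phosphate, was 2.49-fold lower, and STL1, which takes glycerol up, 2.83-fold. GPD2 was not called, at 0.33.

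Some transporters had changes as large as any enzyme. TPO2, an exporter of polyamines, read 6.49 and 6.39, with 11951 at 6 h against 138 at 0 h, and was 86.9-fold higher. The other exporters TPO3, TPO1 and TPO4 were higher at 2.29, 1.88 and 1.80. SPE1, the enzyme that starts polyamine synthesis, was lower at -1.34, and OAZ1, whose product marks that enzyme for destruction, was higher at 1.84. PHO89, a phosphate carrier that works with sodium, read -4.97 and -5.01, with 374 and 11935, and was 31.9-fold lower. The main phosphate carrier PHO84 was not called, at 0.05, and the sodium pumps ENA1 and ENA2 were lower at -2.42 and -1.74. The copper-binding metallothionein genes CUP1-1 and CUP1-2 were 10.8- and 11.2-fold higher, and the copper transporter CTR1 was 3.96-fold lower. The CUP1 genes are identical copies, so their probes give 1 reading.

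Of 23 measured cell cycle genes 2 were higher (8.70%), 6 lower (26.1%) and 15 not called. Among all measured genes 15.4% were higher and 12.9% lower. CLB1 and CLB2, the cyclins of mitosis, read -2.79 and -1.86; for CLB2 the red spots were not well above background, so it was at least 3.61-fold lower. SWI5, a factor that switches on genes as cells divide, read -1.67. Some genes that separate daughter from mother, picked by value, were lower too, with the chitinase CTS1 at -2.87 and DSE1 at -2.90, as was CHS2, which builds the septum, at -2.49. Of the 36 cell wall genes, which hold these last 3, 13 were lower and 7 higher, the latter led by SCW10 at 2.19 and CIS3 at 1.99. Of 19 DNA replication genes 1 was lower and none was higher.

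Of the 1642 genes called, 611 were in a list and 1031 in none. Among those in none, MCH5, a riboflavin transporter, read 4.66 and 4.86 and was 27.1-fold higher. TDA6, whose role is little known, was 23.5-fold higher. On the lower side FAT3, needed for the uptake of fatty acids, read -3.86, and BOP2, whose role is little known, -3.79. The called genes were spread over the genome. The share called either way ran from 25.8% on chromosome XV to 36.3% on chromosome IX, and was 7 of 15 for the mitochondrial genome. The 10 genes nearest each chromosome end were called higher in 12.6% and lower in 9.82% of 285 cases, against 15.7% and 13.6% of 5271 other nuclear genes. There were 9 runs of at least 4 neighbours called in the same direction, the longest with 5 genes on chromosome X, among them RPS14B, RPS22A and RPL39. A run on chromosome VIII held ARG4, DED81, YHR020W and RPS27B, which encode an arginine enzyme, transfer RNA synthetases and a ribosomal protein.

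The same lists were set beside the industrial strains, taking each T6h array of JP1 and CAT-1 minus the T0h array of its strain. The 2 T6h arrays of a strain share its T0h array, and the labels are open to the doubt given above, so the values stand side by side and were not tested. Replicates 4 and 5 lie on the second slide, where few green spots were well above background. The values of replicates 1 and 2 of the first slide are therefore also given alone, JP1 first. The CAT-1 T6h arrays were dim in red on either slide. Their median red signals were 60 for replicate 2 and 83 for replicate 5, against 234 on the BY4741 array. Of their red spots 80.0% and 79.8% were well above background, against 92.6%. The offset pulls ratios of such dim genes towards 0. Several lists lay on the same side of 0 in all strains: glycolysis had a median of 2.56 in BY4741 and 3.34 to 4.48 in the other strains (3.99 and 4.48 on the first slide), and the respiratory chain -2.56 and -1.96 to -1.25 (-1.78 and -1.25). Sulfate assimilation had a median of 4.31 in BY4741 and 1.28 to 2.71 in the others (2.71 and 1.75). The arrays of the others all had signal for MET17, and a link between MET17 and these medians was not tested. The medians of the reserve carbohydrate lists lay on opposite sides, though some members, such as GLC3 and ATH1, were below 0 in every strain. The trehalose genes had a median of -1.56 in BY4741 and 0.93 to 1.31 in JP1 and CAT-1 (1.2 and 1.31), and the glycogen genes -2.37 and 0.35 to 0.76 (0.76 and 0.35). Ribosome assembly was at 0.77 in BY4741 and -1.12 to -0.45 in the others (-1.08 and -0.45), and the cytosolic ribosomal proteins at 1.89 and -0.08 to 0.84 (0.84 and 0.17). The mannoproteins of cells without oxygen had a median of -0.45 in BY4741 and 1.53 to 2.54 in the others (2.54 and 2.22).

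**Figure D5:**
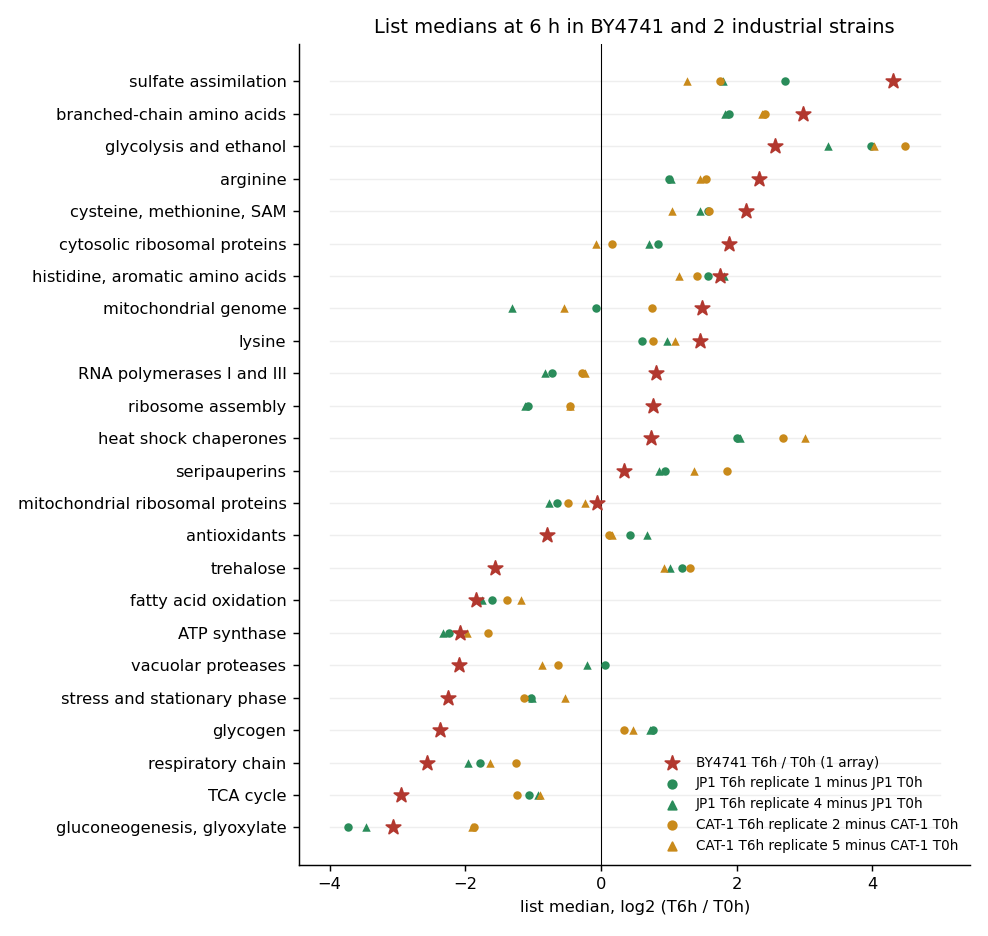
Median log2 change from T0h to T6h of 24 gene lists, with stars for the BY4741 array and circles and triangles for the arrays of JP1 (green) and CAT-1 (orange), each minus the T0h array of its strain. The star of trehalose lies at -1.56 and the other 4 points between 0.93 and 1.31, while for glycolysis the 5 points lie between 2.56 and 4.48.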

How the data were processed

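RNA of 1 BY4741 sample at 6 h was set against BY4741 RNA of 0 h on a 2-colour Agilent array. Per the file headers, the scan was turned into numbers with version 10.10.1.1 of Agilent Feature Extraction; the deposited signals and local backgrounds of the spots are intensity values in scanner units. The deposited log ratio of that software is a log10 of red over green, after its own background subtraction and dye normalisation. The marks for spots well above background, saturated, uneven or outlying, and the authors' table of processed values, are in no stated unit (other). Per the submitters' processing notes, limma was used, with no version or step given. The genome build behind the probes is not given in the sources used here, so no coordinates are printed.

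Median spot signals were corrected by normexp with the median local background and an offset of 50, and each array was normalised by loess without weight on control spots (R 4.3.3, limma 3.58.1). The log2 ratios of the 2 spots of a probe were averaged. Loess centres the ratios along signal strength, so values are relative to genes of similar brightness, and the offset pulls ratios of dim genes towards 0. A normalised red or green signal is the brightness after both steps and a further one. That step gave the mean log brightness of the 2 channels the same distribution on all 8 arrays (Aquantile in limma). It left the log2 ratios unchanged. Such a signal does not allow a comparison of levels between genes. Where the dimmer channel was not well above background in either spot, the fold was computed against the lowest normalised signal of a probe well above background, or the probe's own where higher, and is given as a bound. The number of arrays limits the precision: there is 1, the spots are technical repeats, and no test was run.

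Symbols came from the RefSeq gene table of assembly R64 by systematic name, in which 5756 of 6256 were found; the other 500 are unnamed in it, and 22 of their probes were called. That table also gave the order of genes along chromosomes.

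The rule for named genes took the 15 genes with the highest and the 15 with the lowest ratio among those called with a standard symbol, the 4 called genes farthest from 0 in each list, all members of the marker, mating, mitochondrial genome, regulator and isoform lists, and list members not called; not every gene it allows is printed. Other called genes named for their role, such as GLK1, SUL2 or CBF1, were chosen after their values were seen, as were YCT1, HSU1 and PFK27, which are in no list. The gene groups and lists, 70 in all, were chosen with earlier results of these data known. Alternatives were a smaller offset, no background correction, the scanner software's own log ratio, median centring, no normalisation, keeping marked spots, a stricter and no filter on dim spots, and calls on the mean of the spots. Results for some genes are not reported here.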

Additional observations from a re-analysis of the deposited data

Results flagged for a closer look

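Of 69 gene lists with measured genes, 19 stood out. The 4 differences of JP1 and CAT-1 were again each T6h array minus the T0h array of its strain. In each of the 19 lists, with the processing reported, the BY4741 median lay on 1 side of 0 and all 4 differences on the other. In each case the difference was not tested, there is 1 BY4741 array, and the T6h arrays of a strain share 1 T0h array. On the lower side in BY4741 were pentose phosphate genes (median log2 ratio -0.70, against 0.89 to 1.31 in the other strains), trehalose genes (-1.56, against 0.93 to 1.31) and glycogen genes (-2.37, against 0.35 to 0.76). Glycerol genes were at -1.05 against 0.51 to 0.83, antioxidant genes at -0.79 against 0.12 to 0.68, and galactose genes at -0.58 against 0.24 to 1.13. The 4 aquaporin genes were at -0.54 against 0.76 to 1.82, sucrose and maltose genes at -0.47 against 0.31 to 0.74, and mannoproteins of cells without oxygen at -0.45 against 1.53 to 2.54. Hypoxic genes were at -0.35 against 0.60 to 0.83, iron genes at -0.30 against 0.0022 to 0.36, and ammonium and glutamate genes at -0.26 against 0.11 to 0.89. Closest to 0 were cell wall genes (-0.063, against 0.15 to 1.03), ergosterol genes (-0.048, against 0.27 to 1.07) and hexose transporters (-0.019, against 0.16 to 1.08). On the higher side in BY4741 were ribosome assembly genes (0.77, against -1.12 to -0.45) and genes of RNA polymerases I and III (0.81, against -0.82 to -0.23). There, too, were genes specific to mating type alpha (0.43, against -0.80 to -0.15) and histones (0.13, against -0.28 to -0.19). Of the 4 differences, 2 rest on arrays of the second slide, where few green spots were well above background. The median green background there was 387 for JP1 and 348 for CAT-1, against 24 on the BY4741 array. The CAT-1 T6h arrays of either slide were also dim in red, as given above. The doubt about the labels of JP1 and CAT-1 files against the deposited value table touches all 19.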

How the results depend on the processing

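One array without a replicate limits every value above: neither the spread between cultures nor a dye effect can be seen, since the dyes were not swapped. The scanner software's own log ratio, which adds no offset, gave 1137 genes at least 2-fold lower, 480 at least 4-fold higher and 363 at least 4-fold lower. With no normalisation 388 genes were at least 2-fold higher, 1991 at least 2-fold lower, 122 at least 4-fold higher and 545 at least 4-fold lower, and the median of all measured genes was -0.66. Relative to 0, the median of the thiamine genes went from 0.61 to -0.048 there, and that of the drug export genes from 0.59 to -0.23. Among called genes, 54.4% were higher as reported, 44.1% under median centring (780 higher, 989 lower) and 16.3% with no normalisation. The other 29 of 36 alternative counts lay within 1.5 times the reported ones. Keeping marked spots gave identical counts of calls, since no spot was marked. Dropping the filter on dim probes gave identical counts as well. Calling on the mean of the 2 spots, an alternative chosen after seeing the data, gave 926 higher and 779 lower. Of 2430 alternative values of 270 named genes none changed sign among those called, and 2 of 621 list medians did among those reaching 0.5. The deposited value table gave no counts, since the scale of its column for this array is not known. No paired analysis was possible because the result comes from 1 array and from no test.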

Other observations

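Against 15.4% higher and 12.9% lower among all measured genes, further lists had the following counts. Of 17 drug resistance genes 7 were higher (41.2%) and 1 was lower, among them PDR16, a lipid transfer protein, at 3.28 and the exporter ATR1 at 3.00. Of 36 measured autophagy genes 8 were lower (22.2%) and 1 was higher, the latter being ATG41 with spots of 4.35 and 4.36, a red signal of 7959.9 and a green signal of 388. ATG42, a vacuolar peptidase, was lower at -2.47. Of 16 measured thiamine genes 4 were higher (25.0%) and none was lower, led by THI4, an enzyme of thiamine synthesis, at 2.41. In the COS family, membrane proteins encoded near chromosome ends by close copies whose probes may share signal, 5 of 11 measured genes were higher (45.5%) and none was lower.

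Of 15 ammonium and glutamate genes 4 were higher and 2 lower, among them the ammonium permease MEP2 at 2.40, the asparagine synthetase ASN1 at 2.11 and the glutamate dehydrogenase GDH3 at -2.84. GAT1, an activator of nitrogen genes, was higher at 2.18. RPN4, the activator of proteasome genes, was higher at 1.86, and of the 34 genes in its list it was the one called higher, against 4 called lower.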
